A study of Mus musculus with 8 samples.

Results

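The Fc receptor and Fc receptor-like genes described here, 8 of the 47937 gene IDs in the count tables, were followed through the acute loss of the transcription factor EBF1 in mouse pro-B cells. The members were set by name: Fcgr2b, Fcgr3, Fcgr4, Fcer1g, Fcrla and Fcrlb, which lie on chromosome 1, and Fcrl1 and Fcrl5, which lie on chromosome 3. For 6 the match used the gene names in the authors' deposited table, and for 2, Fcgr4 and Fcrlb, reference gene names. All libraries came from A-MuLV transformed pro-B cells, early B-lineage cells immortalised by the Abelson murine leukaemia virus, of the genotype EBF1-dTAG_N, in which an exogenous tagged EBF1 stands in for the endogenous protein. The compound dTAG-13 brings a tagged protein to a ubiquitin ligase for degradation. There were 4 libraries from cells given DMSO and 4 from cells given 0.5 µM dTAG-13, both for 6 h by the treatment labels, although the sample titles of the DMSO group read 0 h. The series describes the 4 as biological replicates, and the labels name neither a number of clones nor separate cultures. Cells that lack the tag were not analysed here, so effects of the compound and of EBF1 loss cannot be told apart. Total RNA was sequenced after ribosomal RNA depletion, and each gene has a count over its exons and a remainder over its introns, the latter mostly from unspliced RNA.

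Fc receptors bind the constant part of antibodies and pass the signal into the cell. Fcgr3 and Fcgr4 encode activating receptors for IgG that signal through the common gamma chain encoded by Fcer1g, which carries an immunoreceptor tyrosine-based activation motif (ITAM). Fcgr2b encodes the inhibitory IgG receptor, the principal Fc gamma receptor of mature B cells, which recruits the inositol phosphatase SHIP-1 through an inhibitory motif (ITIM). The Fc receptor-like genes arose from the same ancestral family: Fcrl1 and Fcrl5 encode surface proteins of B-lineage cells, whereas the products of Fcrla and Fcrlb stay inside the cell.

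The DNA just before the RefSeq start sites of the 3 members that changed is shown first, since 2 of these genes rose and 1 fell. The sequences come from RefSeq (GRCm38.p6), run 5′ to 3′ on the strand of the gene, end at the base before the start site and are cut where an annotated exon begins. Capitals mark matches to the strings searched on both strands.
Fcrl1, chr3:87376137-87376386, plus strand: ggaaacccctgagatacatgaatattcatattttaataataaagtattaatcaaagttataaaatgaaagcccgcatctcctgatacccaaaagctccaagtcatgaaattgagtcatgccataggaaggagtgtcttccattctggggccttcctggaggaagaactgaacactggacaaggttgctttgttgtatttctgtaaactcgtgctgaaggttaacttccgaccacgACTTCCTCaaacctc
Fcgr3, chr1:171059404-171059626, minus strand: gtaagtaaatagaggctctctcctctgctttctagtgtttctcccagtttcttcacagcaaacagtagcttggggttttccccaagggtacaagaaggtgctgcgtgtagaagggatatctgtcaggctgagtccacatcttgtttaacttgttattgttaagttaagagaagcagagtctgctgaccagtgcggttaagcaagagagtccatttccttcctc
Fcrla, chr1:170927584-170927833, minus strand: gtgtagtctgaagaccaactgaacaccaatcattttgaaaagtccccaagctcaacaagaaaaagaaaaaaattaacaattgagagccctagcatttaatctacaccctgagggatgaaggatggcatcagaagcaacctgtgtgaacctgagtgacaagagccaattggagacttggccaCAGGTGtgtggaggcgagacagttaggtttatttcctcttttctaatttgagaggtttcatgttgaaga
The search covered 3 strings in the 300-base RefSeq windows, 250 bases before the start and 50 from it on: TCCC, any 2 bases and GGGA for EBF1, CAGGTG for E proteins and GAGGAAGT for the ETS factor PU.1. All 8 members were matched, with 9 windows because Fcgr3 has 2 starts. The Fcgr3 starts lie inside the gene as GENCODE vM21 bounds it, since a longer annotated transcript begins further upstream. The full EBF1 string was in none of the 9 windows and in 0.904% of the 32851 windows of the whole table. Only exact matches were counted. The Fcgr3 sequence above holds cccaaggg, which is that string without its outer T and A. How many windows hold this shorter form was not counted. The PU.1 string, held by 3.2% of all windows, read on the opposite strand as ACTTCCTC in Fcrl1, from position -15 relative to the start, and in Fcgr4, from -24, and on the gene's own strand in Fcrlb, from -129. The E protein string, held by 20.2% of all windows, was in Fcrla from position -69 and in Fcrlb from -164. These matches describe letters within short windows only, and binding was not measured.

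Within 6 h of dTAG-13, Fcrl1 rose 2.98-fold and Fcgr3 2.07-fold, Fcrla fell 1.93-fold, and neither the inhibitory receptor gene Fcgr2b nor the gamma chain gene Fcer1g passed the test. Fcgr4, Fcrlb and Fcrl5 had no exonic read in any library. Among the 5 members with enough reads to be tested, each with reads in all 8 libraries, 3 had an adjusted p below 0.05 in exonic counts (edgeR's quasi-likelihood test, Benjamini-Hochberg over all genes tested), 2 higher and 1 lower. Over all 12889 genes tested the same call was made in 28.3%, with 14.3% higher and 14.0% lower. The groups did not overlap for the same 3 members, against 27.7% of all genes tested. Fcrl1 and Fcgr3 also passed at a change of at least 2-fold, as did 2.9% of all genes. Levels are given as CPM, counts scaled to a common library size and so shares of the RNA in a library, and in such bulk samples fewer cells that express a gene and less RNA per cell cannot be told apart. The authors' deposited table draws on the same libraries and so is no independent measurement. Its exonic log2 fold changes read 1.57 for Fcrl1, 1.04 for Fcgr3, -0.86 for Fcrla, -0.09 for Fcgr2b and 0.08 for Fcer1g. Its intronic value for Fcrla was -0.59. The DESeq2 run made here gave exonic values of -0.95 for Fcrla and 0.39 for Fcer1g, at adjusted p-values of 4.25e-05 and 0.61. The deposited adjusted p-values were 4.2e-05 and 0.6. The headers do not state whether the deposited fold changes were shrunken, a step that pulls uncertain values towards no change. By the main edgeR fit, the median log2 fold change was 0.38 over the 5 tested members and -0.003 over all genes tested. The 0.38 is the value of the sparse gene Fcer1g, which ran from 0.11 to 0.63 when single libraries were left out.

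**Figure D1:**
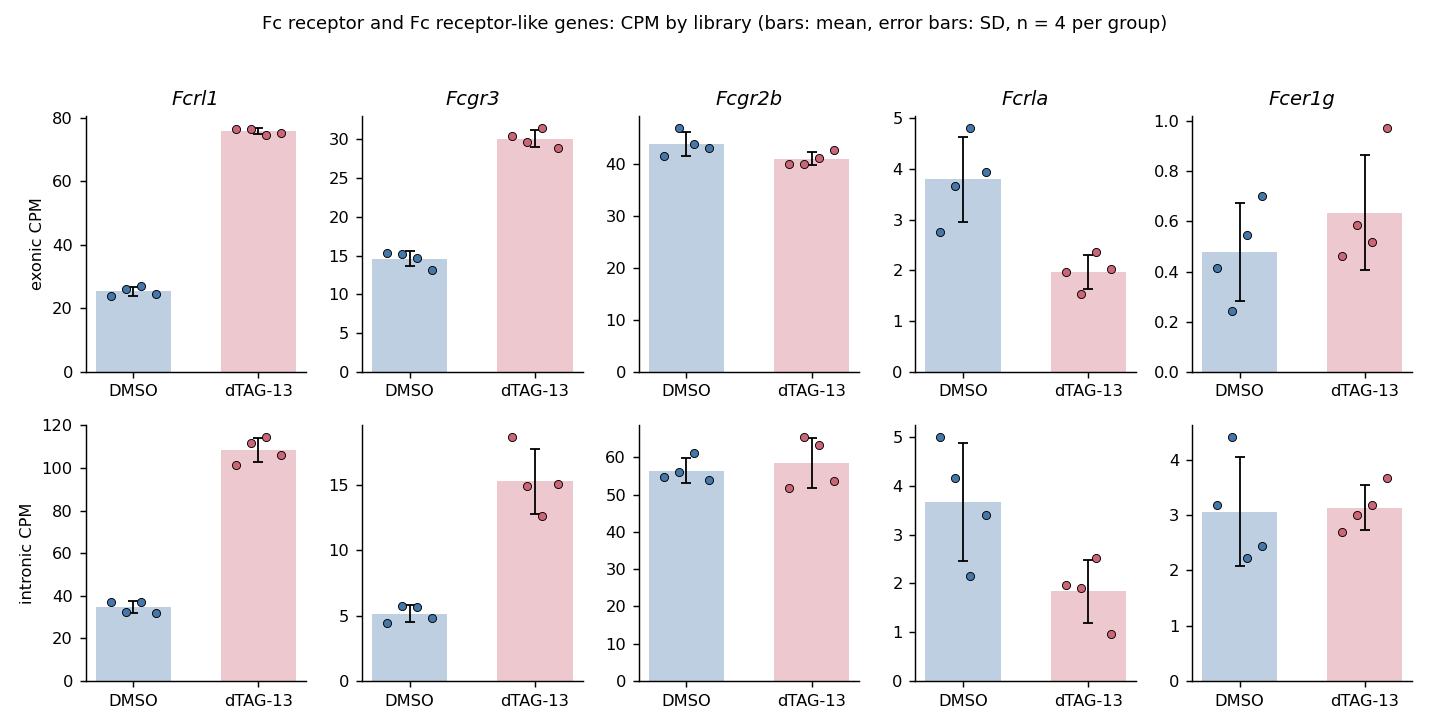
Exonic (upper row) and intronic (lower row) CPM of the 5 tested members in the 4 DMSO and 4 dTAG-13 libraries; bars are means, error bars SD, points libraries, and every axis starts at 0. Fcrl1 and Fcgr3 separate upwards in both rows, exonic Fcrla separates downwards, and the groups overlap for Fcgr2b and Fcer1g.

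Fcgr3 (ENSMUSG00000059498.13, chromosome 1, 171051174 to 171064935, minus strand, GRCm38) encodes the low-affinity activating IgG receptor. Its exonic level was 15.3, 15.2, 14.7 and 13.1 CPM in DMSO replicates 1 to 4 and 30.4, 29.6, 31.4 and 28.8 CPM in dTAG-13 replicates 1 to 4. Every treated library lay above every control library. The mean went from 14.6 ± 0.998 to 30.1 ± 1.10 CPM (SD, n = 4 each), a log2 fold change of 1.05 (SE 0.07, adjusted p = 7.9e-13), the 213th highest of the 12889 genes tested. Intronic Fcgr3 reads, few in number, gave 4.42, 5.72, 5.67 and 4.78 CPM with DMSO and 18.7, 14.9, 12.6 and 15.1 CPM with dTAG-13. The 2 groups again stood apart, with an intronic log2 fold change of 1.56 (SE 0.18, adjusted p = 3.6e-07), the 67th highest of 11229.

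Fcgr2b (ENSMUSG00000026656.15, chromosome 1, 170958617 to 170976547, minus strand), the inhibitory counterpart of Fcgr3, lies 74.6 kb from it. It stood at 41.4, 46.8, 43.8 and 43.0 CPM in the 4 controls and at 40.0, 40.0, 41.2 and 42.6 CPM in the 4 treated libraries. The groups overlapped, since the highest treated library lay above the lowest control. The means were 43.8 ± 2.27 and 41.0 ± 1.24 CPM (SD, n = 4 each), with a log2 difference of -0.10 (95% interval -0.19 to 0.003, adjusted p = 0.151). Intronic Fcgr2b averaged 56.5 ± 3.27 CPM with DMSO and 58.6 ± 6.75 CPM with dTAG-13, a log2 difference of 0.05 (95% interval -0.13 to 0.23, adjusted p = 0.762). Neither interval reaches a change of the size measured in Fcgr3.

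The ratio of the activating to the inhibitory receptor transcript therefore moved through Fcgr3. Per kilobase of exon, the Fcgr3 to Fcgr2b ratio was 1.23, 1.08, 1.12 and 1.02 with DMSO and 2.54, 2.47, 2.54 and 2.26 with dTAG-13, so that every treated library lay above every control. With the longest coding transcript of each gene as its length, the ratio averaged 0.879 ± 0.0694 and 1.93 ± 0.106 (SD, n = 4 each). The pair of genes shares sequence: 166 of the 1733 different 50-base stretches of Fcgr3 transcripts, 9.58%, also occur in Fcgr2b transcripts, and 2.54% of its 100-base stretches do. Reads from those stretches could count for either gene or for neither, so the values of both genes carry that uncertainty.

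Fcer1g (ENSMUSG00000058715.11, chromosome 1, 171229572 to 171234365, minus strand), the signalling chain that activating Fc receptors need at the cell surface, was close to the detection limit. It had 12, 7, 21 and 26 exonic reads in the DMSO libraries and 17, 23, 20 and 34 in the dTAG-13 libraries. These ranges overlap, and the means of 0.477 ± 0.196 and 0.635 ± 0.230 CPM (SD, n = 4 each) gave a log2 difference of 0.38 whose 95% interval ran from -0.43 to 1.19 (adjusted p = 0.535). Most of its reads were intronic, a mean of 66.0% of gene reads with DMSO and 60.8% with dTAG-13, against 28.7% and 30.2% for Fcgr2b. The intronic log2 difference of Fcer1g was 0.06 (adjusted p = 0.933). The exonic counts of Fcer1g are compatible with any difference from -0.43 to 1.19, so neither a rise nor a fall is shown.

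Fcgr4 (chromosome 1, 171018920 to 171029761, plus strand), the second activating IgG receptor of the set, had 0 exonic and 0 intronic reads in all 8 libraries, although it lies between Fcgr2b and Fcgr3, 21.4 kb from the latter. A count of 0 allows up to 3 reads, which is 0.0765 to 0.104 CPM in single libraries and covers counting error only. The same exonic limit holds for Fcrlb (chromosome 1, 170907273 to 170912941, minus strand), which also had no intronic read, and for Fcrl5 (chromosome 3, 87435773 to 87500678, plus strand). Fcrl5 had 12 intronic reads over all libraries, 0 to 3 in each.

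Among the Fc receptor-like members, Fcrl1 (ENSMUSG00000059994.10, chromosome 3, 87376387 to 87402934, plus strand) showed the largest change. This gene encodes a B-cell surface receptor with ITAM-like sequences. Its exonic level was 23.9, 26.2, 27.0 and 24.6 CPM in DMSO replicates 1 to 4 and 76.6, 76.5, 74.7 and 75.4 CPM in dTAG-13 replicates 1 to 4. The groups lay far apart and each was tight. The mean rose from 25.4 ± 1.41 to 75.8 ± 0.924 CPM (SD, n = 4 each), a log2 fold change of 1.57 (SE 0.05, 2.98-fold, adjusted p = 1.1e-19), the 60th highest of 12889. Intronic Fcrl1 rose with it, from 37.0, 32.2, 36.9 and 32.1 CPM to 101, 112, 114 and 106 CPM. That is a log2 fold change of 1.65 (SE 0.08, 3.14-fold, adjusted p = 8.9e-14), the 54th highest of 11229.

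Fcrla (ENSMUSG00000038421.13, chromosome 1, 170917576 to 170927583, minus strand) encodes an intracellular Fc receptor-like protein of the B lineage and was the member that fell. Its exonic level was 2.76, 3.66, 4.80 and 3.95 CPM in DMSO replicates 1 to 4 and 1.96, 1.53, 2.36 and 2.03 CPM in dTAG-13 replicates 1 to 4. The highest treated library lay below the lowest control, and the gap between them was smaller than the spread among controls. The mean fell from 3.79 ± 0.840 to 1.97 ± 0.342 CPM (SD, n = 4 each), 1.93-fold lower, a log2 fold change of -0.95 (SE 0.20, adjusted p = 0.00042). Intronic Fcrla rested on 44, 35, 28 and 39 reads with DMSO and on 19, 24, 27 and 12 with dTAG-13. Its intronic groups overlapped in CPM, and the log2 difference of -0.99 (95% interval -1.74 to -0.23) missed the threshold (adjusted p = 0.0657). Without DMSO replicate 3, the control with the fewest intronic Fcrla reads, the adjusted p was 0.0344. A processed pseudogene on the same strand, Gm2962, lies within Fcrla and had 63 reads in all.

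The order of the members by level depended on the condition. Per kilobase of exon, mean DMSO levels were 8.40 ± 0.575 CPM for Fcgr3, 7.56 ± 0.392 for Fcgr2b and 7.14 ± 0.395 for Fcrl1 (SD, n = 4 each), neighbours in an order whose spreads meet. Fcrla followed at 2.17 ± 0.481 and Fcer1g at 0.546 ± 0.224. With dTAG-13 the per-kilobase order was Fcrl1 at 21.3, Fcgr3 at 17.3, Fcgr2b at 7.07, Fcrla at 1.13 and Fcer1g at 0.727 CPM. Between single libraries, the Fcrl1 to Fcgr3 ratio ran from 0.763 to 0.914 with DMSO and from 1.16 to 1.27 with dTAG-13, and the Fcrl1 to Fcgr2b ratio from 0.910 to 1.00 and from 2.88 to 3.12. Fcgr2b has annotated exons of 5790 bp in all and a longest coding transcript of 3544 bp, and with coding transcripts as lengths the DMSO order among the first 3 became Fcrl1, Fcgr2b and Fcgr3, at 12.8, 12.3 and 10.8 CPM per kilobase. The dTAG-13 order was the same under both lengths, with Fcrl1 at 38.3, Fcgr3 at 22.3 and Fcgr2b at 11.6 CPM per kilobase of coding transcript.

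In intronic counts, which follow unspliced RNA, 2 of the 5 tested members were called, Fcrl1 and Fcgr3, both higher, against 16.8% of the 11229 genes tested (8.26% higher and 8.5% lower). The groups stood apart for the same 2 members, against 19.5% of genes, and both passed at a change of at least 2-fold, against 2.86%. A test of the difference between exonic and intronic change, in 1 model over both kinds of count, called 0 of the 5 members and 28 of 10026 genes (0.279%, edgeR). Without adjustment, 1 member and 764 genes had a p below 0.05 in that test. The member was Fcgr3, whose exonic change was smaller than its intronic change by 0.51 on the log2 scale (SE 0.18, adjusted p = 0.434). The intronic share of its gene reads averaged 9.92% with DMSO and 13.4% with dTAG-13. For Fcrl1 the difference was -0.08 (95% interval -0.27 to 0.11), and for Fcgr2b -0.14 (95% interval -0.35 to 0.06).

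**Figure D2:**
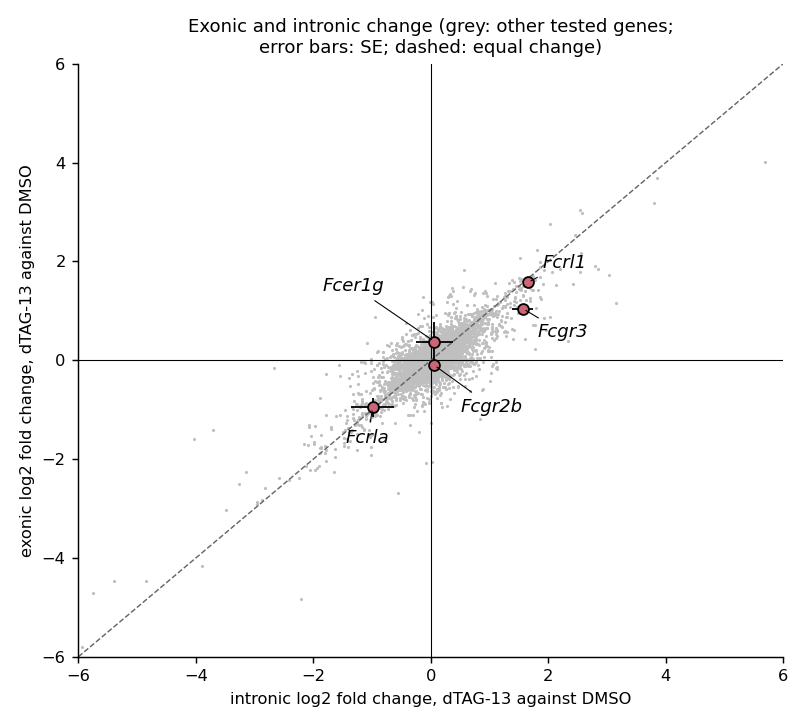
Exonic against intronic log2 fold change, dTAG-13 against DMSO, for the 10026 genes tested in both kinds of count (grey) and the 5 tested members (red, error bars SE); the dashed line marks equal change. Fcrl1 lies near the line at 1.65 and 1.57, Fcgr3 below it at 1.56 and 1.05, and Fcrla near it at -0.99 and -0.95.

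Most other receptors for antibodies had few or no reads in these cells, with the exception of Trim21. Of 11 further Fc receptor genes, 7 had no exonic read in any library, among them Fcer1a and Ms4a2, the binding and beta chains of the IgE receptor, and Fcgrt, the neonatal Fc receptor. Only 2 were tested and neither passed: the cytosolic antibody receptor Trim21 at 13.5 ± 1.83 and 15.5 ± 0.961 CPM (adjusted p = 0.0952, and 0.0307 without DMSO replicate 2) and Fcrl6 at 0.339 ± 0.144 and 0.155 ± 0.161 CPM (adjusted p = 0.192). Fcgr1, the high-affinity IgG receptor, had 17 exonic reads over all libraries. Of a list of 8 adaptor chains, most of them ITAM-bearing, 2 were tested and both fell, as did 14.0% of all genes tested. They were the B-cell receptor chains Cd79b (log2 fold change -0.54, SE 0.04, adjusted p = 2.77e-11) and Cd79a (-0.30, SE 0.04, adjusted p = 3.95e-07). Tyrobp and Hcst, adaptors of myeloid and NK cell receptors, stayed below 0.2 CPM on average in both groups.

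Genes that carry the signal of activating Fc receptors moved in both directions. Of 13 tested, 6 rose and 5 fell in exonic counts, against 14.3% and 14.0% of all genes tested. The median log2 fold change of the list was 0.05. The kinase Syk, which docks on phosphorylated ITAMs, fell from 295 ± 3.32 to 202 ± 8.02 CPM (log2 fold change -0.54, adjusted p = 3.01e-12). Plcg1, a phospholipase further down the pathway, fell by 0.61 on the log2 scale (adjusted p = 7.45e-13), and the Src-family kinase Fyn rose by 0.50 (adjusted p = 2.36e-11). Lat, an adaptor best known from T cells and named after its values were seen, rose from 7.53 ± 0.706 to 15.6 ± 0.888 CPM (adjusted p = 3.89e-10). Lyn, the Src-family kinase that phosphorylates these receptors in B cells, rose by 0.18 (adjusted p = 0.00289) with overlapping groups; it too was named after its values were seen.

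Of 10 tested genes of the inhibitory arm, 5 rose and 3 fell, against 14.3% and 14.0% of all genes tested. Their median log2 fold change was 0.14. The phosphatase gene Ptpn6, which encodes SHP-1, rose from 71.6 ± 2.54 to 117 ± 2.82 CPM (log2 fold change 0.70, adjusted p = 6.58e-14), and Csk, the kinase that restrains Src-family kinases, rose by 0.50 (adjusted p = 1.19e-11). Inppl1, which encodes the inositol phosphatase SHIP-2, fell from 153 ± 2.93 to 96.0 ± 3.57 CPM (log2 fold change -0.67, adjusted p = 1.01e-13). Inpp5d, the gene of the Fcgr2b partner SHIP-1, fell from 624 ± 5.29 to 495 ± 12.3 CPM (-0.34, adjusted p = 4.66e-09) while Fcgr2b itself did not pass the test. The adaptor gene Dok2 rose from 4.23 ± 1.20 to 10.1 ± 0.381 CPM (1.28, adjusted p = 7.02e-08). Inpp5d and Dok2 were named after their values were seen.

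**Figure D3:**
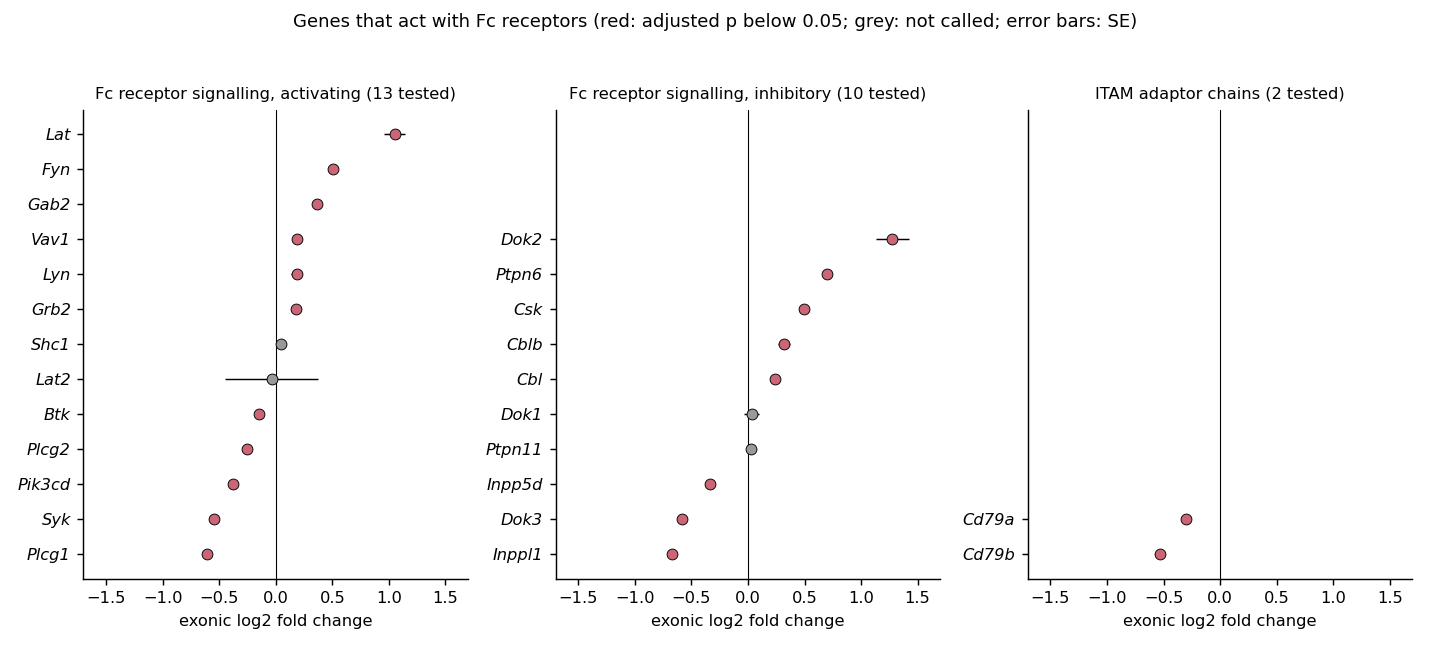
Exonic log2 fold change with SE, dTAG-13 against DMSO, of the tested genes that signal for activating Fc receptors (13), of the inhibitory arm (10) and of the ITAM adaptor chains (2); red points have an adjusted p below 0.05. Both signalling lists hold genes on either side of 0, from -0.61 for Plcg1 to 1.05 for Lat and from -0.67 for Inppl1 to 1.28 for Dok2.

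Several members are also expressed outside the B lineage, so markers of other cells were read beside them. The pro-B markers were present, summing to 3162 to 3255 CPM with DMSO and 2308 to 2450 CPM with dTAG-13. Of these, 10 of 12 fell, against 14.0% of all genes tested, among them the surrogate light chain genes Igll1 (log2 fold change -2.39) and Vpreb1 (-1.63). The pro-B level moved in the direction of Fcrla, and its part in the Fcrla result was not tested. The 16 myeloid markers summed to 4.29 to 4.80 CPM with DMSO and 3.55 to 4.69 CPM with dTAG-13, most of it Cd68 (4.02 and 3.21 CPM on average), and 6 of them, Cd14, Csf3r, Elane, Cebpa, S100a8 and S100a9, were at 0 in all libraries. Lyz2 was called higher among them (0.236 ± 0.0934 to 0.575 ± 0.220 CPM, adjusted p = 0.0305), a call lost, at adjusted p-values up to 0.156, without DMSO replicate 1, 2 or 4 or dTAG-13 replicate 1 or 3. Mast cell and basophil markers summed to at most 0.0544 CPM in any library, with 7 of 8 at 0, and stromal markers to at most 0.272 CPM. NK and T cell markers summed to 0.346 to 0.794 CPM with DMSO and to 0.842 to 1.63 CPM with dTAG-13, with 10 of 14 at 0. Klrb1c was called among these (0.197 ± 0.0665 to 0.508 ± 0.157 CPM, adjusted p = 0.0251), a call lost, at adjusted p-values up to 0.119, without DMSO replicate 1, 2 or 4 or dTAG-13 replicate 3 or 4. Prf1 was not called (adjusted p = 0.0512, and 0.00644 without DMSO replicate 2). The summed NK and T cell level moved in the direction of Fcgr3, at a small part of the Fcgr3 level, and its part in the Fcgr3 result was not tested. None of the 3 tested mature B cell markers, Cd22, Cr2 and Ighd, was called (Cd22 had an adjusted p of 0.0753, and 0.0468 without DMSO replicate 3). Of 2 tested erythroid and megakaryocyte markers, Klf1 fell (0.710 ± 0.160 to 0.0857 ± 0.0672 CPM, adjusted p = 3.39e-05) and Itga2b was not called (adjusted p = 0.467).

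The change of a member did not extend evenly over its surroundings. On chromosome 1, the tested members Fcrla, Fcgr2b, Fcgr3 and Fcer1g lie in that order, spread over gaps of 31.0 to 165 kb, with log2 fold changes of -0.95, -0.10, 1.05 and 0.38. Of 43 other genes within 250 kb of them, 21 were tested and 7 called (33.3%, against 28.3% of all genes tested), 4 higher and 3 lower. Their log2 fold changes lay between -0.83 and 0.39, a range that holds the point estimate of neither Fcrla nor Fcgr3. The 95% interval of Fcgr3, 0.91 to 1.18, lay above that range. The interval of Fcrla, -1.36 to -0.55, reached into it, so Fcrla was not set apart from the lowest neighbour. Olfml2b, 224 kb from Fcrlb and named after its values were seen, was the lowest of the 7 called genes and Arhgap30, 155 kb from Fcer1g, the highest. The other 5 were small: Atf6 rose by 0.24, B4galt3 by 0.18 and Ufc1 by 0.17, while Dusp12 fell by 0.22 and Pfdn2 by 0.18, and all of these but Atf6 lost their call when single libraries were left out. This held for B4galt3 without DMSO replicate 1, 2 or 3 or dTAG-13 replicate 2 or 3 (adjusted p up to 0.163), and for Ufc1 without DMSO replicate 1, 3 or 4 or dTAG-13 replicate 1 or 2 (up to 0.213). It held for Dusp12 without DMSO replicate 1 or 3 or dTAG-13 replicate 1, 3 or 4 (up to 0.163), and for Pfdn2 without any one library except DMSO replicate 1 and dTAG-13 replicate 4 (up to 0.132). On chromosome 3, 4 of 12 other genes near Fcrl1 and Fcrl5 were tested. Pear1 (log2 fold change 1.03, adjusted p = 4.49e-12) and Arhgef11 (0.34, adjusted p = 0.000908) rose, 247 and 117 kb from Fcrl5. Cd5l, 5.31 kb from Fcrl1, went from 0.303 to 0.627 CPM and was not called (log2 difference 1.00, adjusted p = 0.108), and Etv3 on the far side of Fcrl5 was not called (-0.04, adjusted p = 0.523). Cd5l and Etv3 were named after their values were seen.

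**Figure D4:**
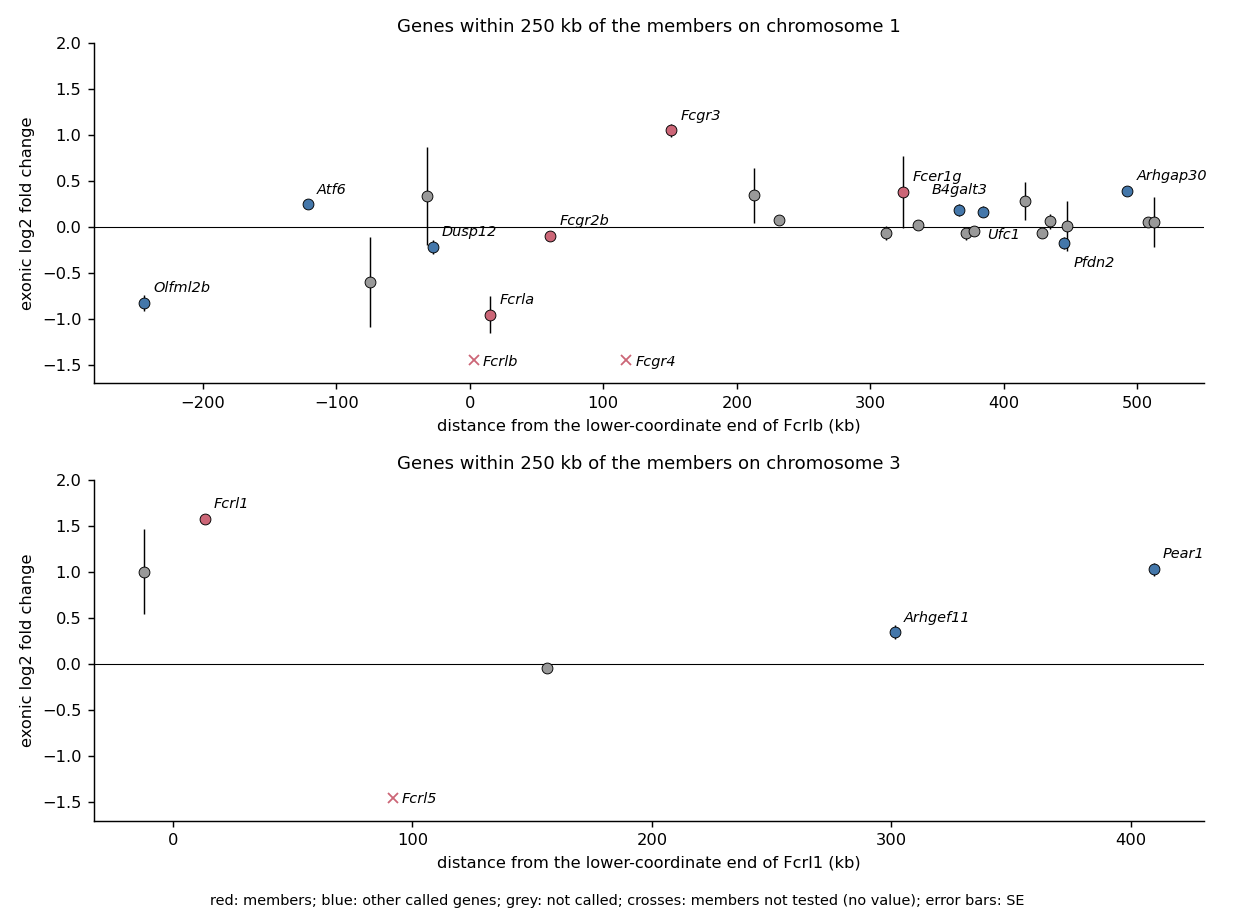
Exonic log2 fold change with SE, dTAG-13 against DMSO, of tested genes within 250 kb of the members, by distance in kb from the first member of the locus, on chromosome 1 (upper) and chromosome 3 (lower); members in red, other called genes in blue, genes not called in grey, and crosses mark members without exonic reads. The point estimates of Fcgr3 at 1.05 and Fcrla at -0.95 lie outside the range of the other tested genes of the locus. Between Fcrla and Fcgr3, the member Fcgr2b was the only tested gene. The confidence interval of Fcrla, -1.36 to -0.55, holds the value of Olfml2b, -0.83. Fcrl1 at 1.57 is the highest of its locus.

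For each called member, the 3 genes whose centred log2 CPM followed it most closely over the 8 libraries were listed by the root mean square difference, a description that rests mostly on the contrast between the groups. Nearest to Fcrl1 were Gem, a small GTPase gene (0.06), Id2, an inhibitor of E proteins (0.07), and Def6 (0.09). Gem went from 30.6 to 86.6 CPM, Id2 from 11.2 to 34.3 CPM and Def6 from 40.1 to 110 CPM. Nearest to Fcgr3 were Jun, Rassf2 and the Toll-like receptor homologue Cd180, each at a difference between 0.06 and 0.07, with Cd180 going from 25.3 to 52.1 CPM. The genes nearest to Fcrla, a gene of lower counts, were Gm37975, Stk38l and Odaph, at larger differences of 0.12 to 0.17.

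Depth ran from 28982316 to 38999496 exonic reads per library, with means of 33580300 for DMSO and 37114900 for dTAG-13 (p = 0.2, two-sided exact permutation test). The intronic share of reads was 20.4% to 27.3% in single libraries (p = 0.714, two-sided exact permutation test). With 4 libraries against 4 the smallest p of this test is 0.0286, reached only by a complete separation, so these checks do not show that the groups were alike. Ebf1 RNA was present in every library and 1.23-fold higher with dTAG-13 (adjusted p = 2.1e-07). The degradation acts on the protein, so this RNA checks no label.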

How the data were processed

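Stranded total RNA libraries, 4 per group, were analysed from 2 tables of raw counts per gene that the authors deposited, one over exons and one over the whole gene. DESeq2, featureCounts, Subread 2.0.0, deepTools 3.3.2, SAMtools 1.10 and STAR 2.7.4a are named in the submitters' processing notes, with the builds mm10 and GRCm38.p4; the annotation release and the strand setting of the counting are not given in the sources used here. The authors' deposited table of 25948 genes, which holds log2 fold changes and p-values per the file headers, served for gene names and for the member values set beside those computed here. Coordinates are those of GENCODE vM21 (GRCm38), where all members carry the same version.

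Intronic counts are whole-gene minus exonic counts, and none was negative. Each was tested with edgeR 4.0.16 (R 4.3.3), quasi-likelihood F test, TMM scaling, filterByExpr (minimum count 10, minimum total 15), with Benjamini-Hochberg adjustment over all genes tested and a threshold of 0.05. The difference of exonic and intronic change was the interaction in 1 model with the library as a block. The edgeR tests were run on simulated counts with planted 2-fold changes and the same dispersion for every gene, a simpler setting than these data. They recovered 97% of planted changes for exonic counts, 95% for intronic counts and 95.5% for the difference. These shares do not carry over to genes with few reads. The edgeR p-values weigh the difference between groups against the spread between these libraries, as the model estimates it. Intervals and limits from 0 counts cover no more than their model. Alternatives were DESeq2 1.42.0, RLE scaling, no filter, whole-gene counts, leaving out 2 abundant ribosomal-like genes (Gm26917 and Gm42418), a replicate block and leaving out each library.

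Members, lists and tests were chosen with earlier results of these data known. Named genes were all members, up to 3 tested genes with the smallest exonic p of each list, up to 6 called neighbours per locus within 250 kb and 3 like genes per called member, and others are marked as named after their values were seen. Not every gene that the rule selects is reported here. The lists covered other Fc receptors, activating and inhibitory Fc receptor signalling, and ITAM and related adaptor chains. They also covered markers of pro-B, myeloid, mast cell and basophil, NK and T, mature B, erythroid and megakaryocyte, and stromal cells. Protein sequences were not used here.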

Additional observations from a re-analysis of the deposited data

How the results depend on the processing

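The 3 exonic member calls (Fcrl1, Fcgr3 and Fcrla) were made under every alternative run on exonic counts. The test of exonic against intronic change, run with RLE scaling, without the filter, without Gm26917 and Gm42418 and without each library, called no member. Intronic Fcrla was also called without the low-count filter (adjusted p = 0.0472). In the main fit, deviations of same-numbered libraries from their group means correlated at -0.024 to 0.058. The labels do not state whether same-numbered libraries were paired. A replicate block gave 3 exonic and 2 intronic member calls, with 3753 and 1937 genes called in all. The 28 genes called for unequal exonic and intronic change over the whole table became 112 without the filter and between 11 and 26 with single libraries left out; the cause was not tested. Values near 0 changed sign when single libraries were left out: intronic Fcgr2b (-0.0051 to 0.12) and Fcer1g (-0.060 to 0.28), the exonic minus intronic difference of Fcrla (-0.29 to 0.38) and Fcer1g (-0.13 to 0.59), and exonic Ighd (-0.0013 to 0.17), which was also -0.0069 with whole-gene counts. Leaving out single libraries moved exonic Fcrl1 between 1.55 and 1.60, Fcgr3 between 1.00 and 1.07 and Fcrla between -1.07 and -0.82. Among neighbours, B4galt3, Ufc1, Dusp12 and Pfdn2 also lost their calls under at least 1 other setting, Pfdn2 among them under the block (adjusted p = 0.0539), while Prf1 was called under it (adjusted p = 0.0462). Lyz2 and Klrb1c were not called without the filter (adjusted p = 0.057 and 0.0635), nor Lyz2 with whole-gene counts (0.0787). Depth limits Fcer1g, intronic Fcrla and the 3 members without exonic reads.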
